A study of Mus musculus with 8 samples.

Results

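The Dlk1-Dio3 locus on mouse chromosome 12 carries a large group of imprinted microRNAs (miRNAs). The group examined here is a list of 36 of its mature miRNAs, found by exact name among the non-control rows of the arrays. Of these, 35 had probes, out of 1881 miRNAs on the array, and miR-299a-5p was not analysed here. In these kidneys 3 of the 35 were detected by the main rule given below: mmu-miR-494-3p and mmu-miR-487b-3p on all 8 arrays, and mmu-miR-370-3p on 5. The other 32 were not, and most of them read near the negative control probes. Of these, miR-668-3p and miR-136-5p read above the highest negative control probe on all 8 arrays. Both miRNAs detected throughout were lower in kidneys of mice given lipopolysaccharide (LPS), in the main setting and in all 26 alternatives tried. Many of these alternatives could not change the direction, such as those of filter, variance model or slide column. The adjusted p stayed under 0.05 in all 26 for miR-487b-3p and in 13 for miR-494-3p.

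At this locus the protein-coding genes Dlk1, Rtl1 and Dio3 are expressed from the paternal chromosome, and the non-coding RNAs Meg3, Rian and Mirg from the maternal chromosome. The miRNAs lie within or between the non-coding RNAs, are thought to be cut from long maternal transcripts, and are best known from embryo, placenta and brain. A subset lies antisense to Rtl1 and pairs with its transcript over the whole length of the miRNA. A mature miRNA recognises most targets through its seed, the bases near its 5′ end, so members with different seeds are taken to have different targets.

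The samples were kidneys from sham mice given normal saline and from mice with LPS-induced acute kidney injury, which received an intraperitoneal injection of LPS, a bacterial outer membrane component, of 10 µg per g body weight. Kidneys were taken after 24 h, with 4 arrays per group, numbered 5, 6, 7 and 8 for sham and 6, 10, 11 and 12 for LPS. Total RNA from 30 mg of tissue was used, 100 ng of it labelled with Cy3 and hybridised to 1-colour Agilent mouse miRNA arrays. Strain, age and sex are not given in the sources used here, and the sample labels do not state whether each array had its own animal. The p-values therefore cover only the spread among these samples, which may in part be technical. All 8 arrays were on 1 slide, the sham arrays in row 1 and the LPS arrays in row 2, and the effect of slide row cannot be told apart from that of group.

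On each array 15.8% to 17.5% of the non-control spots were well above background, and 336 to 375 miRNAs were detected. Kidney identity was checked with 6 tubule miRNAs, all detected on every array, whose summed level (log2 of the signal over the array's 75th percentile of detected probes) was 6.18 to 6.30 in sham and 6.02 to 6.22 in LPS kidneys. Within this sum miR-192-5p (-0.28), miR-194-5p (-0.33) and miR-204-5p (-0.19) were lower in LPS, each with a limma adjusted p under 0.05. For miR-30a-5p (-0.11), miR-10a-5p (0.10) and miR-200b-3p (-0.08) the adjusted p was above it. Of 7 miRNAs known from nerve and endocrine tissue, 3 were detected on every array (miR-9-5p, miR-128-3p and miR-7a-5p) and 4 on none, among them the neuronal miR-124-3p. The summed level of these 7 was -0.98 to -0.77 in sham and -0.66 to -0.47 in LPS kidneys, so it was higher in LPS without overlap. Values under the floor (-4.68) entered this and the other marker sums as the floor, so sums with undetected miRNAs rest partly on it. The members did not move together: mean levels in sham and LPS were -3.09 and -2.07 for miR-7a-5p, -2.81 and -2.49 for miR-9-5p and -3.10 and -3.23 for miR-128-3p, and the 4 undetected ones were at the floor in both groups. The 3 leukocyte miRNAs summed to 0.62 to 1.17 in sham and 1.13 to 1.31 in LPS, and the 2 red cell miRNAs to -0.97 to 1.64 and 1.01 to 3.78. The leukocyte miRNAs differed in direction, with LPS minus sham at 0.86 for miR-223-3p, 0.26 for miR-142a-3p and -0.22 for miR-150-5p. All 5 stromal miRNAs were detected on every array (2.76 to 2.95 in sham, 2.84 to 3.0 in LPS). They too differed, at -0.44 for miR-145a-5p, -0.25 for miR-199a-5p, -0.12 for miR-214-3p, 0.05 for miR-143-3p and 0.16 for miR-199a-3p. Of 3 striated muscle miRNAs 1 was detected on every array and 2 on none (summed level -2.53 to -2.16 and -2.31 to -2.23), and the liver miRNA miR-122-5p on none. The part of these shifts in the results below was not tested, and in whole tissue fewer cells of a type and less miRNA per cell cannot be told apart.

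RefSeq mature sequences (GRCm38.p6) were found for 33 of the 36 listed names, and they carried 33 different seeds, so no seed was shared among them. The sequences below are those of 2 of the 3 detected members and of the 3 brightest undetected ones. They run 5′ to 3′, with capitals marking the seed (bases 2 to 8). miR-487b-3p is named only.
miR-494-3p: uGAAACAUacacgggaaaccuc
miR-370-3p: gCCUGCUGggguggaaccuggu
miR-668-3p: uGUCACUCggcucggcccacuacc
miR-134-5p: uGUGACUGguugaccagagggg
miR-136-5p: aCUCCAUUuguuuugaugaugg
All 5 come from the plus strand of chromosome 12, and no other mouse mature miRNA in RefSeq had the seed of any of them. In GRCm38.p6, miR-494-3p lies at chr12:109715367-109715388, miR-370-3p at chr12:109618305-109618326, miR-668-3p at chr12:109734774-109734797, miR-134-5p at chr12:109734145-109734166 and miR-136-5p at chr12:109595331-109595352.

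The array reads each miRNA from its 3′ end, through 2 to 4 probes of 10 to 22 bases with 7 to 15 spots each. The probes of miR-494-3p show the design, with capitals marking bases complementary to the mature sequence.
miR-494-3p probe of 14 bases: GAGGTTTCCCGTGT
miR-494-3p probe of 15 bases: GAGGTTTCCCGTGTA
miR-134-5p probe of 10 bases: CCCCTCTGGT
miR-134-5p probe of 13 bases: CCCCTCTGGTCAA
The 14-base probe of miR-494-3p pairs with bases 9 to 22 and misses the seed, and the 15-base probe adds base 8. Of the 74 probes of members with a RefSeq sequence, 22 pair with no seed base. The paired stretches of the probes printed here occur in no other mouse mature miRNA of the RefSeq table.

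A miRNA was called detected on an array when the scanner software flagged over 50% of spots as well above background for at least 1 of its probes. By this rule 3 of 35 members were detected on at least 1 array (8.57%), against 21.5% of all 1881 miRNAs. Every array of a group detected 2 of 35 (5.71%), against 18.0% of all miRNAs. All 10 members placed in the Meg3 and Rtl1 region were undetected (miR-673-5p, miR-337-3p, miR-337-5p, miR-665-3p, miR-431-5p, miR-433-3p, miR-127-3p, miR-434-3p, miR-434-5p and miR-136-5p), several of them antisense to Rtl1. In the region of Rian, miR-370-3p was detected and miR-341-3p was not. Between Rian and Mirg lay 18 members, of which miR-494-3p and miR-487b-3p were detected. The 16 others there were miR-379-5p, miR-411-5p, miR-380-3p, miR-323-3p, miR-329-3p, miR-543-3p, miR-495-3p, miR-667-3p, miR-376c-3p, miR-376b-3p, miR-376a-3p, miR-381-3p, miR-382-5p, miR-134-5p, miR-668-3p and miR-485-5p. None of the 5 in the region of Mirg was detected (miR-154-5p, miR-377-3p, miR-541-5p, miR-409-3p and miR-410-3p).

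**Figure D1:**
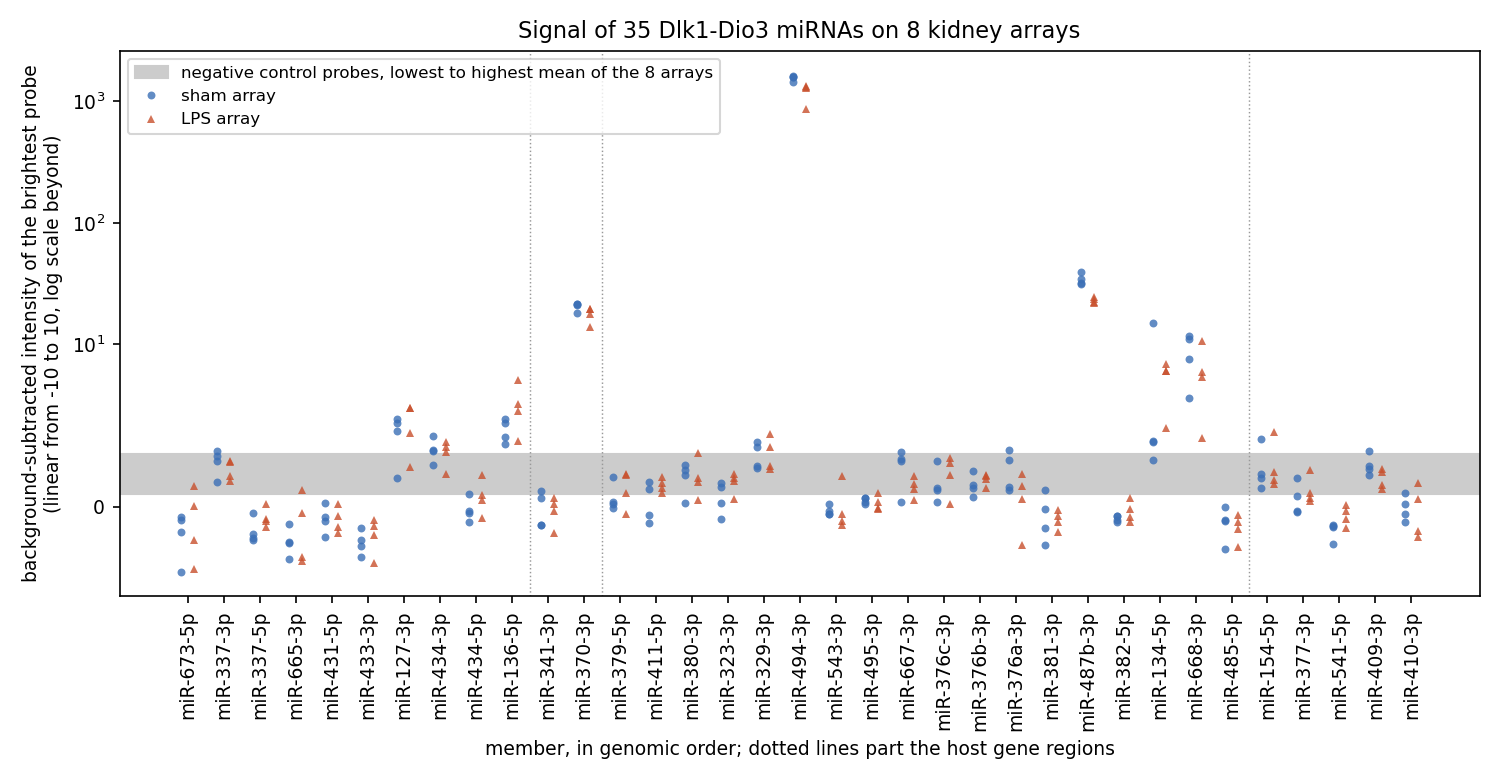
Background-subtracted intensity (vertical axis, linear near 0 and logarithmic beyond 10 in either direction) of the brightest probe of each of the 35 members, in genomic order, for each sham and LPS array. The grey band spans the negative control probe means (0.758 to 3.26), and 5 members stand above it on all 8 arrays: the detected miR-494-3p, miR-487b-3p and miR-370-3p, and the undetected miR-668-3p and miR-136-5p.

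The detection count depended on how strict the rule was. Asking for over 50% of spots in every probe left 1 member, miR-494-3p. A single spot well above background was enough for 4, which added miR-134-5p, and the software's own call per miRNA gave 5, with miR-134-5p on sham replicate 5 and miR-668-3p on sham replicate 8. The looser flag for a positive and significant spot gave 10 members (28.6%), while the same flag gave 43.3% of all miRNAs. Besides those 5 it took in miR-127-3p, miR-136-5p, miR-154-5p, miR-329-3p and miR-409-3p.

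mmu-miR-494-3p, which has been reported to act on the stress factor Atf3 in kidney ischaemia, gave signals far above background. Its 14-base probe read 1434, 1575, 1629 and 1578 intensity units on sham replicates 5, 6, 7 and 8, and 1313, 869, 1292 and 1338 on LPS replicates 6, 10, 11 and 12. The 15-base probe read 737, 803, 839 and 818 in sham and 681, 450, 661 and 700 in LPS. Each LPS array lay below each sham array on both probes, and LPS replicate 10 lay far below the other LPS arrays. Every spot of both probes was well above background on every array.

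With the signal summed over its probes and expressed relative to the 75th percentile of detected probes on the same array, miR-494-3p was at 2.17, 2.34, 2.27 and 2.26 log2 units in sham and 1.97, 1.29, 1.89 and 2.04 in LPS. The means were 2.26 ± 0.07 and 1.80 ± 0.34 (SD, n = 4 per group). The difference between LPS and sham was -0.46 ± 0.15 (SE, 95% interval -0.82 to -0.11), or 72.6% of the sham level, with a limma adjusted p of 0.0429 over 338 miRNAs. The groups did not overlap, so a drop in all 4 slide columns, each with 1 sham and 1 LPS array, was bound to follow. It was -1.04 in column 2, which holds LPS replicate 10, and -0.20 to -0.39 in the others. The difference was -0.29 without LPS replicate 10 (limma adjusted p = 0.0106). In 13 of 26 alternatives it was no longer called, and a block for slide column was 1 of them (limma adjusted p = 0.0837).

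mmu-miR-487b-3p lay closer to background. Its 18-base probe read 39.4, 32.1, 34.4 and 31.5 intensity units in sham and 23.5, 22.5, 21.9 and 24.4 in LPS. Its 17-base probe read 13.0, 11.7, 11.4 and 10.8 in sham and 7.55, 9.15, 7.37 and 9.25 in LPS. All LPS arrays were below all sham arrays on both probes. The 18-base probe carried the detection, with all of its spots above background on sham arrays and 66.7% to 93.3% on LPS arrays, while at most 13.3% of the spots of the 17-base probe were above background on any array. The negative controls averaged 1.49 to 2.25 intensity units.

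The summed, scaled level of miR-487b-3p was -3.20, -3.43, -3.48 and -3.57 log2 units in sham and -4.04, -4.09, -4.17 and -3.88 in LPS. The means were -3.42 ± 0.15 and -4.04 ± 0.12 (SD, n = 4 per group), so LPS kidneys had 64.8% of the sham level. The difference was -0.63 ± 0.09 (SE, 95% interval -0.84 to -0.41; limma adjusted p = 0.0016). Within the 4 slide columns it ran from -0.83 to -0.31, the same direction in each being bound to follow from groups without overlap. It was called in all 26 alternatives. Its size rests on how signal near background is treated: it was -0.18 with the normexp background correction and its offset. It was -0.32 with the mean of log2 values over probes, where the 17-base probe sat at the floor in both groups. Without a floor the probes differed by -0.57 (17 bases) and -0.65 (18 bases), so -0.32 is smaller than the drop on either. With a floor 1 log2 unit higher the difference was -0.26. All LPS arrays sat at that higher floor, so -0.26 is only a lower bound on the size of the drop.

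**Figure D2:**
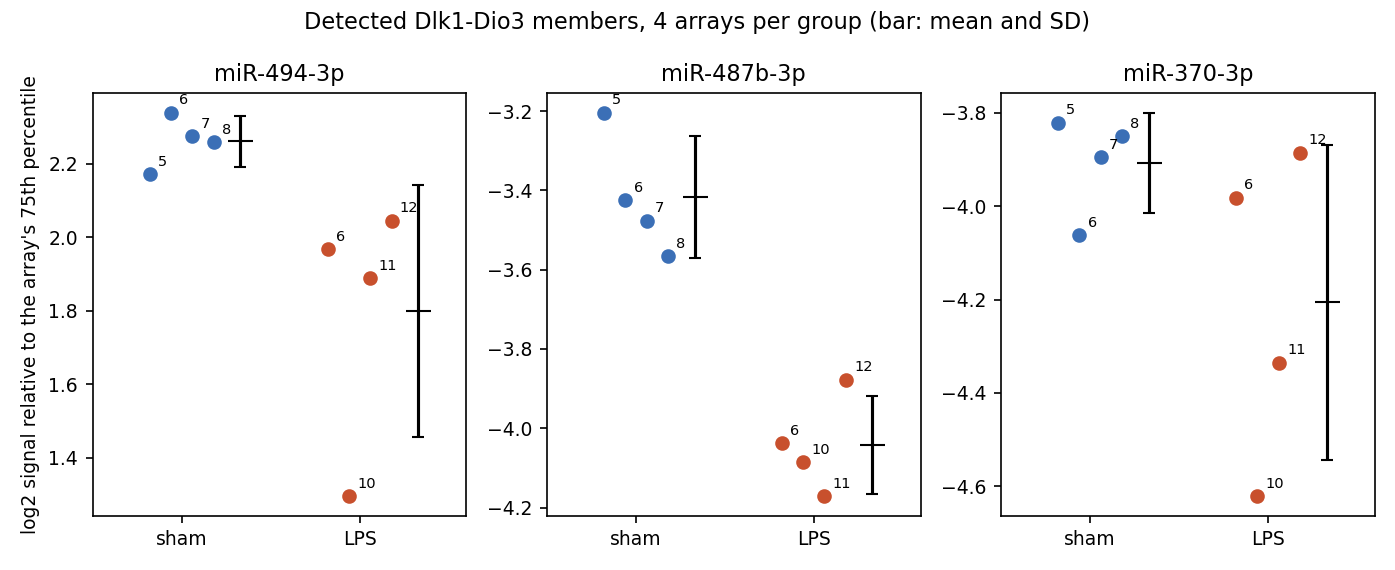
Log2 signal over the 75th percentile of detected probes (vertical axis, a different range in each panel) for miR-494-3p, miR-487b-3p and miR-370-3p on sham and LPS arrays. Points are arrays with their replicate numbers, bars the mean and SD of 4; the groups are apart for the first and second miRNA and overlap for miR-370-3p.

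Both tested members were called lower in LPS, against 40.2% of the 338 tested miRNAs called in either direction and 25.4% called lower. Groups without overlap, with LPS lower, were found for both members and for 24.9% of tested miRNAs (37.0% in either direction). Their differences lay below the median over all tested miRNAs, -0.08, and 2 members cannot stand for the 35. Among all tested miRNAs 86 were called lower and 50 higher. This split moved to 152 and 34 with the labelling spike-ins, 49 and 57 with no scaling, 53 and 55 with the percentile over all probes, 66 and 65 with cyclic loess and 53 and 46 in the deposited ratio table. With the spike-ins the median over all tested miRNAs shifted to -0.23, and the differences were -0.61 for miR-494-3p and -0.77 for miR-487b-3p. Another scaling of the arrays moves the differences of all miRNAs above the floor by the same amount. The place of these 2 members below the median could therefore hardly change, and it tells nothing further.

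mmu-miR-370-3p, which lies in the Rian region, was detected on 3 sham arrays (replicates 5, 7 and 8) and 2 LPS arrays (replicates 6 and 12), so it did not enter the test. Its 15-base probe read 21.6, 18.2, 21.0 and 21.5 intensity units in sham and 19.5, 14.0, 17.7 and 19.7 in LPS. Its 14-base probe read 12.5, 9.98, 13.3 and 13.2 in sham and 12.8, 7.81, 8.45 and 13.7 in LPS. The groups overlapped on both probes, with LPS replicate 10 lowest. The share of spots of the 15-base probe above background was 60%, 26.7%, 76.9% and 86.7% in sham and 53.3%, 13.3%, 46.7% and 80% in LPS. On the log2 scale its mean was -3.91 ± 0.11 in sham and -4.21 ± 0.34 in LPS (SD, n = 4 per group), a difference of -0.30 with a 2-sided exact permutation p of 0.2. The smallest p that 4 against 4 arrays allow is 0.0286.

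**Figure D3:**
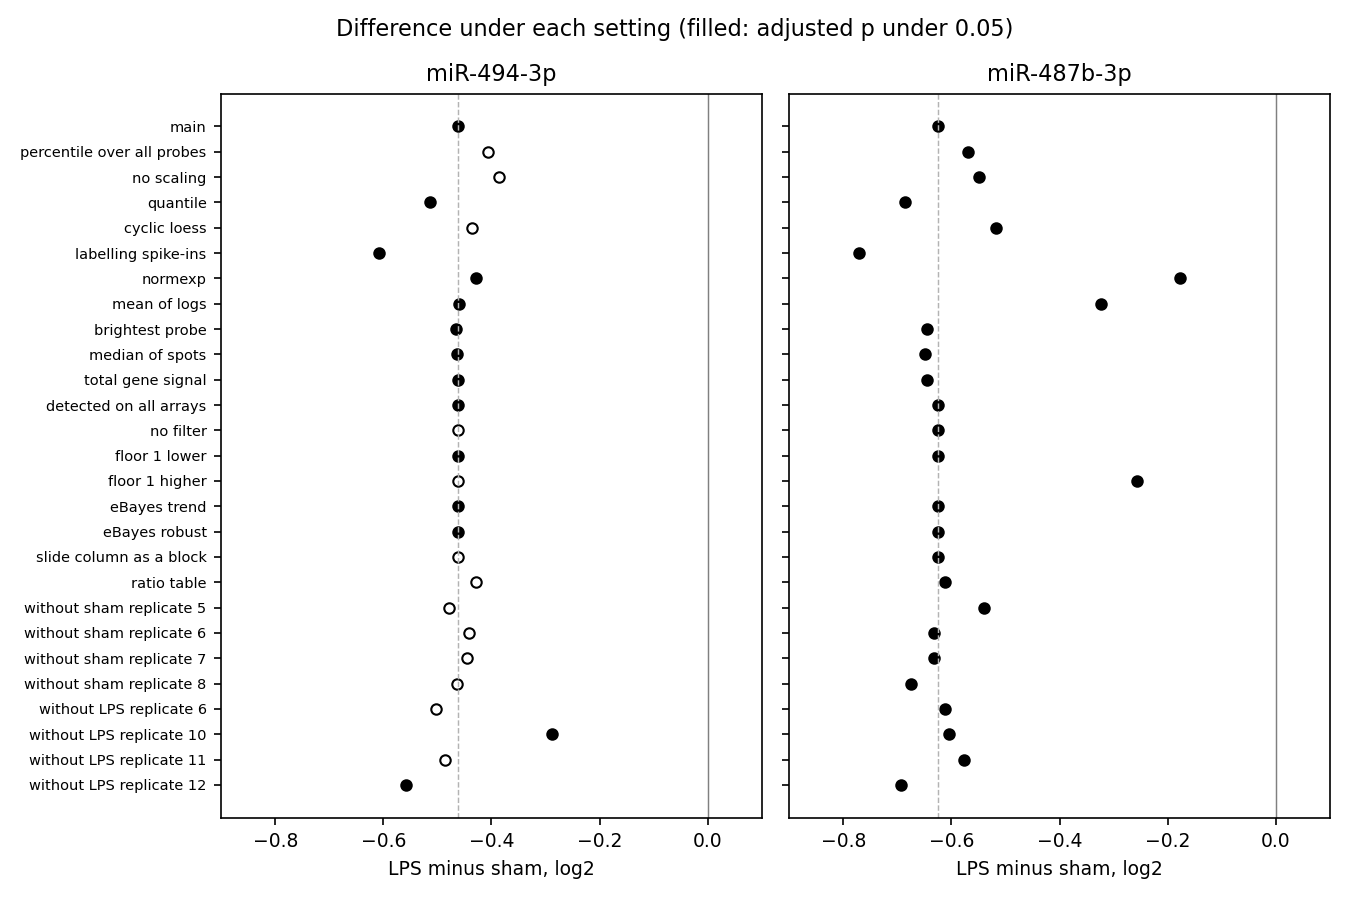
Difference between LPS and sham kidneys (horizontal axis, log2) for miR-494-3p and miR-487b-3p under the main setting and 26 alternatives. Filled points have a limma adjusted p under 0.05; all points of both miRNAs lie below 0, and 13 of the 26 alternatives are unfilled for miR-494-3p and 0 for miR-487b-3p.

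The opposite arms of the 3 detected members gave no detectable signal. They were looked at after the values of the members were known. The brightest probe of miR-494-5p read -1.53 to 0.912 intensity units over the 8 arrays, that of miR-487b-5p -1.58 to 0.196 and that of miR-370-5p -2.95 to -0.0451. All of these readings were within or below the range of the negative control probe means, and none of the 3 arms was detected on any array.

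The 32 undetected members were spread around background. Their 76 probes had raw spot means of 38.9 to 52.9 intensity units over a local background of 25.7 to 26.4, against 45.1 to 46.5 for the 7 negative control probes. After background subtraction, the brightest probe of each member averaged -2.02 to 8.73 over the 8 arrays, with a median of 0.805 over the 32. The same median over the 1477 miRNAs detected on no array was 0.0674. Of the 32 members, 19 (59.4%) were at or below the highest negative control probe on every array, as were 949 of the 1477 (64.3%). Above it on every array were 2 of 32 (6.25%), miR-668-3p and miR-136-5p, against 13.2% of the 1477. Levels this close to background show only that a miRNA was not detectable with these arrays.

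The lowest 3 by brightest probe were miR-433-3p (-2.02 ± 0.93 intensity units, SD, n = 8), miR-665-3p (-1.82 ± 1.56) and miR-673-5p (-1.45 ± 1.82), all from the Meg3 and Rtl1 region. Below 0 means under the estimated background, not a negative amount. The highest was miR-668-3p, reported to act on the mitochondrial protein Mtfp1 in kidney ischaemia. Its brightest probe read 11.8, 6.73, 9.10 and 11.1 in sham and 8.31, 7.99, 10.6 and 4.26 in LPS, with overlapping groups.

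mmu-miR-134-5p, known from brain for acting on Limk1 in dendritic spines, stood out on 1 array. Its 11-base probe, the brightest, read 15.1 on sham replicate 5, and 4.08, 2.88 and 3.98 on the other sham arrays. In LPS it read 8.80, 4.86, 8.34 and 8.39. Its 10-, 12- and 13-base probes read 16.6, 15.9 and 16.5 on sham replicate 5 and at most 5.84 on the other sham arrays, so all 4 probes were high on that array. No probe of it had more than 14.3% of spots well above background on any array, so it was not detected by the main rule.

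**Figure D4:**
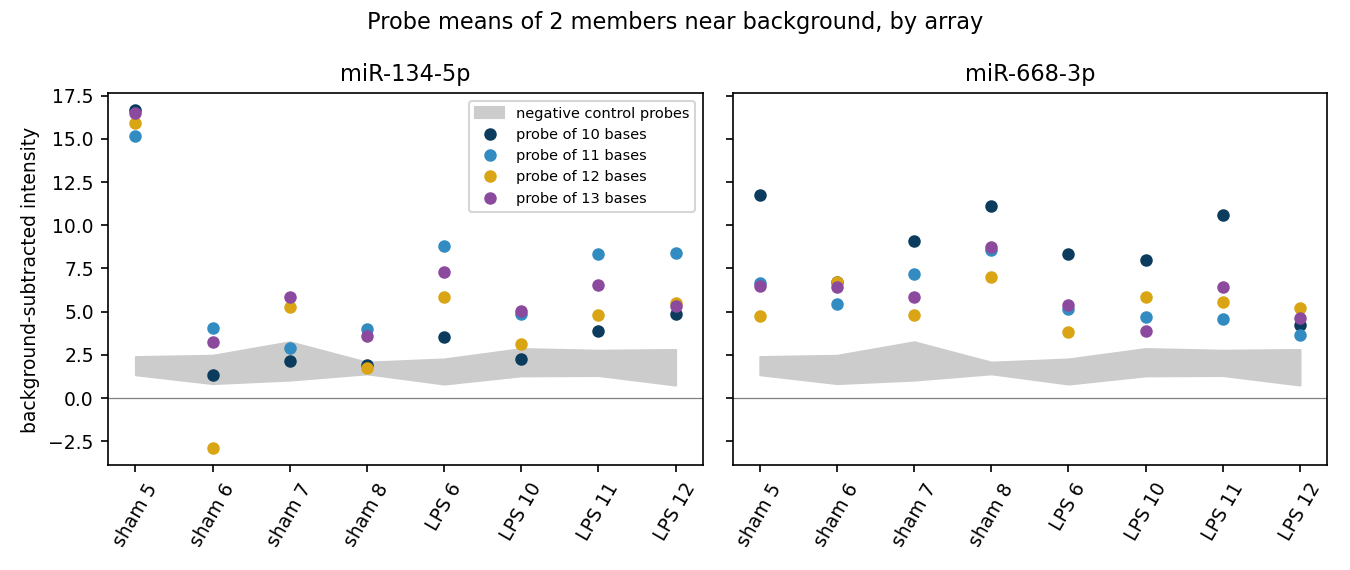
Background-subtracted intensity (vertical axis) of the 4 probes of miR-134-5p and of miR-668-3p on each array, with the range of the negative control probe means in grey. The 4 probes of miR-134-5p lie between 15.1 and 16.6 on sham replicate 5 and at most at 8.80 on the other arrays.

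miR-136-5p, 1 of the miRNAs antisense to Rtl1, was the third brightest undetected member. It read 3.86, 5.13, 4.31 and 5.39 in sham and 5.91, 7.82, 6.34 and 4.02 in LPS, so 3 of 4 LPS arrays were above all sham arrays and LPS replicate 12 was not. Its 21- and 22-base probes reach into the seed, unlike those of miR-494-3p and miR-370-3p, which pair with at most 1 seed base. Across the 32 undetected members the difference between group means of the brightest probe ran from -1.88 to 1.35 intensity units, with a median of 0.243; 12 were lower and 20 higher in LPS. Over the 1477 miRNAs detected on no array the median was -0.0176, with 745 lower and 732 higher. In 0 of the 32 were the groups apart in either direction, against 7.45% of the 1477 undetected miRNAs. In limma without the detection filter, where 3.19% of all 1881 miRNAs were called, 1 of the 35 members was called, miR-487b-3p.

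The locus holds other miRNAs that were not on the list. By RefSeq position between Dlk1 and Dio3, 80 more had probes, 47 of them also by the probe positions in the files, which span 157 kb for the members. Of the 80, 3 passed the detection filter (3.75%, against 18.0% of all miRNAs), none of them among the 47. In the files miR-1906 had no chromosome 12 position. miR-3072-5p started at 110986113, past the end of the members' span (110981994). miR-3070-2-3p started at 109588654, which lies inside its GRCm38.p6 position given below although the files use mm9. The sequences of these 3, with the seed in capitals, do not share a seed with each other. In RefSeq 1 other mouse mature miRNA has the seed of miR-3070-2-3p, and none has that of miR-1906 or miR-3072-5p.
miR-3070-2-3p: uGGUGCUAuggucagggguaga
miR-1906: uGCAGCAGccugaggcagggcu
miR-3072-5p: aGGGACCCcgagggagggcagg
In GRCm38.p6 the first lies at chr12:109588648-109588669 in the Rtl1 region, the second at chr12:109544588-109544609 in Meg3, with a copy on chromosome X whose signal cannot be told apart, and the last at chr12:109747893-109747914 in the Mirg region.

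Of the 3, miR-3070-2-3p was called different. Its summed level was -2.38, -1.62, -1.78 and -1.33 log2 units in sham and -2.47, -2.83, -2.69 and -2.98 in LPS. On this scale the groups did not overlap, though sham replicate 5 lay next to LPS replicate 6. Before scaling they overlapped on the 15- and 17-base probes. There sham replicate 5 read 29.4 and 33.1 intensity units, and LPS replicate 6 read 30.0 and 33.3. On the 16-base probe these arrays read 30.0 and 29.0, without overlap of the groups. The mean was -1.78 ± 0.44 in sham and -2.74 ± 0.22 in LPS (SD, n = 4 per group), a difference of -0.97 ± 0.21 (SE, 95% interval -1.46 to -0.47; limma adjusted p = 0.0103). LPS kidneys thus had 51.2% of the sham level, and 5 of the 338 tested miRNAs had a lower difference. Within slide columns the difference was -0.085, -1.21, -0.92 and -1.65, and with column as a block the limma adjusted p was 0.0535. With the normexp offset the difference was -0.37.

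miR-1906 and miR-3072-5p were not called different between the groups. miR-1906 was at -1.55 ± 0.01 in sham and -1.57 ± 0.13 in LPS, a difference of -0.02 ± 0.07 (95% interval -0.18 to 0.14; limma adjusted p = 0.831). LPS replicate 10, at -1.76, was the lowest of its arrays. miR-3072-5p was at -1.66 ± 0.07 in sham and -1.66 ± 0.06 in LPS (SD, n = 4 per group), a difference of -0.01 ± 0.06 (95% interval -0.14 to 0.12; limma adjusted p = 0.922). The difference between these miRNAs and the members was not tested.

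**Figure D5:**
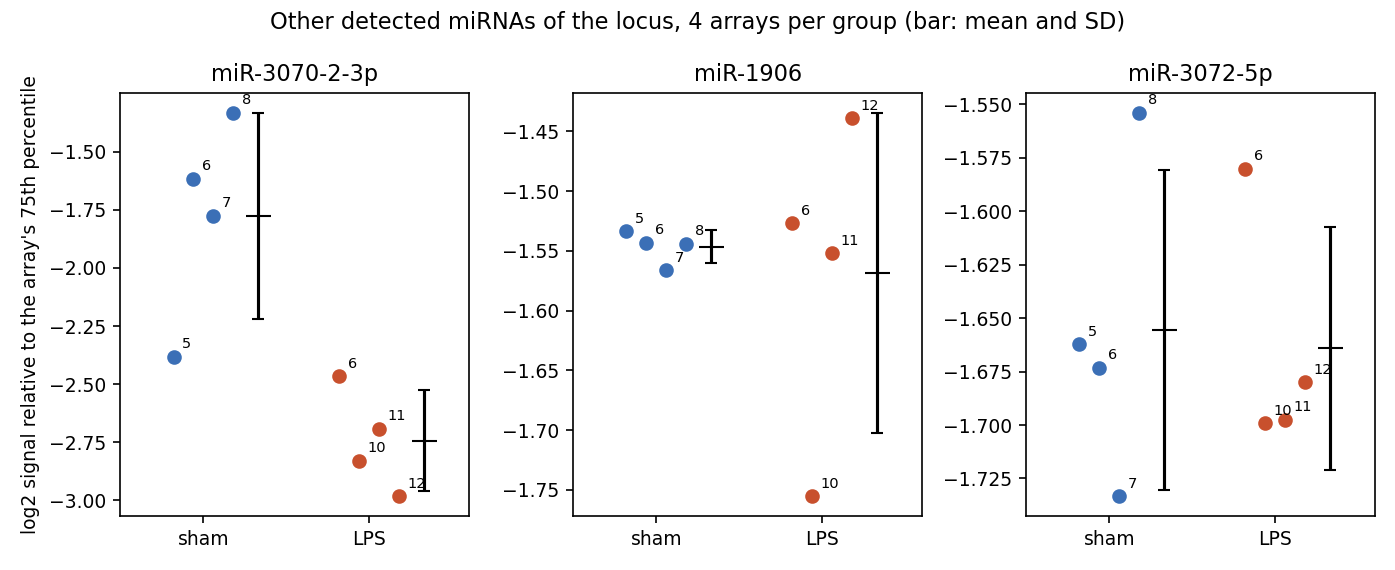
Log2 signal over the 75th percentile of detected probes (vertical axis, a different range in each panel) for 3 other detected miRNAs of the locus. Points are arrays with replicate numbers, bars the mean and SD of 4; sham and LPS arrays are apart for miR-3070-2-3p and overlap for miR-1906 and miR-3072-5p.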

How the data were processed

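Intensities were deposited by the authors as scanner output, 1 table per array, made with Agilent Feature Extraction 12.0.3.1 per the submitters' processing notes. Per the file headers they were background-subtracted, spatially detrended and not scaled between arrays, with probe positions in mm9. The authors also deposited a table of linear ratios, centred per miRNA, whose array factors are not given in the sources used here; it served as an alternative. Outlier spots were left out, spots of a probe averaged, arrays divided by the 75th percentile over the 551 probes detected on all arrays, and probes of a miRNA summed. Sums were floored (-4.68) and log2-transformed. The 338 miRNAs detected on every array of a group were tested with limma 3.58.1 in R 4.3.3 (2-sided, Benjamini-Hochberg, threshold 0.05). The fit was also run on simulated normal values with known changes. These held no effect of slide row and did not pass through the scaling or the floor. No non-control spot was saturated, and the number of arrays limits the precision.

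Named were all members detected on any array, the 3 highest and 3 lowest undetected ones, and other locus miRNAs passing the filter. The planned rule took those by probe position, and RefSeq positions, the planned cross-check, supplied all 3 named. Members and lists were chosen with earlier results of these data known. Alternatives covered detection rule, scaling, background, probe summary, filter, floor, variance model, slide column, the ratio table and leaving out each array.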

Additional observations from a re-analysis of the deposited data

Results flagged for a closer look

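In 76 groups of 4 arrays (3 detected members and 3 other miRNAs of the locus on the log2 scale, 32 undetected members by intensity of the brightest probe), 4 had 1 array far from the other 3 by Dixon's 95% criterion. Chance gives about 1 in 20 groups, or 3.8. miR-134-5p read 15.1 intensity units on sham replicate 5 against 2.88 to 4.08 on the other sham arrays. It also read 4.86 on LPS replicate 10 against 8.34 to 8.80 on the other LPS arrays. miR-541-5p, below background, read -2.33 on sham replicate 8 against -1.28 to -1.14. miR-3072-5p was at -1.58 log2 units on LPS replicate 6 against -1.70 to -1.68 on the other LPS arrays.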

How the results depend on the processing

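A floor 1 log2 unit higher put all LPS values of miR-487b-3p at that floor. The alternatives of filter, variance model and slide column left the differences of miR-487b-3p and miR-494-3p unchanged, so they bear on the call alone. The groups did not overlap for either, so leaving out 1 array could hardly reverse the direction. The difference of miR-487b-3p kept its direction and its call in all 26 alternatives (-0.77 to -0.18, limma adjusted p 0.000434 to 0.0323). That of miR-494-3p kept its direction in all 26 (-0.61 to -0.29) and lost its call in 13: the percentile over all probes, no scaling, cyclic loess, no detection filter, a higher floor, slide column as a block, the ratio table (limma adjusted p 0.0937, 0.0631, 0.1, 0.353, 0.0604, 0.0837 and 0.0741), and leaving out any 1 sham array or LPS replicate 6 or 11 (0.0548 to 0.0972). The number of members called was then 1 in place of 2 under each of these 7, and 1 to 2 over the arrays left out. That of miR-3070-2-3p lost its call without the filter (0.143) and with column as a block (0.0535). miR-370-3p entered the fit without the filter (-0.30, limma adjusted p = 0.374) and without sham replicate 6 (-0.36, 0.152).

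Members tested rose from 2 to 35 without the filter, where 60 miRNAs were called, 31 lower and 29 higher. The number of miRNAs called lower, 86 in the main setting, was 53 with the percentile over all probes, 49 with no scaling, 152 with the spike-ins, 53 in the ratio table and 45 (among 80 calls in all) with column as a block, and 55 to 100 with 1 array left out. Which miRNAs these counts share was not computed. Members detected numbered 1, 5 and 10 on any array by every probe, the software's call and the looser flag, and 1 and 6 on every array of a group by the first and last. The difference of miR-1906, not called, changed sign with the percentile over all probes (0.0347), no scaling (0.0547), cyclic loess (0.0206), brightest probe (0.0192), the ratio table (0.0126) and 1 array left out (-0.0782 to 0.0475), as did that of miR-3072-5p (0.0479, 0.0678, 0.0343, 0.0297, 0.0258 and -0.0223 to 0.0254). The cause was not tested. By replicate number, no paired analysis was possible because the groups share fewer than 2 numbers. The slide columns, each with 1 sham and 1 LPS array, gave the only paired fit, the block above. The array's background limits what can be said of the 32 undetected members.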
